A study of Mus musculus with 8 samples.

Results

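Epididymal white fat of mice after 6 days of CL 316243 was set against control fat, in wild type mice and in mice lacking Ppara. The comparison takes every array whose label names 6 days of the drug together with the control array of each genotype, which is 4 of the 8 arrays in the series. The 6-day groups received CL 316243 at 3 nmol per hour, the wild type control is labelled as without drug, and the Ppara knockout (KO) control is labelled only as a control. The labels do not give the mouse strain, age or sex, a vehicle, the design of the knockout allele, or how many animals gave the RNA of an array, and the source tissue is the same for all groups. The other 4 arrays, 8 hours after 30 nmol and, at the same rate of infusion, 3 days for each genotype, entered the estimate of spread and are described only beside a 6-day result.

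CL 316243 stimulates the β3-adrenergic receptor of fat cells, whose signal through cyclic AMP activates lipases and frees fatty acids from stored triglyceride. Sustained β3 stimulation of white fat is known to bring out mitochondria and the uncoupling protein UCP1, which lets mitochondria burn fuel as heat. PPARα, the product of Ppara, is a nuclear receptor that binds fatty acids and drives genes of fatty acid oxidation in liver, heart and brown fat. Setting the genotypes side by side asks which of the 6-day changes are found in the presence and in the absence of PPARα.

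Intensities are the deposited values, without a unit, and all 8 arrays had the same quartiles (50, 320 and 1250), so a change shared by most genes cannot be seen. Values under a floor of 171 were set to 171, and a change with an array at the floor is given as "at least". In all, 6128 genes were tested, 1 probe set each. Ppara itself read 395 in the wild type control and 1843 after 6 days, and 214 and 336 in the knockout; its 4 wild type arrays were all brighter than the 4 knockout arrays. Genes typical of other organs were bright in the controls, from a source that was not tested. The summed intensity of 8 epididymis and testis genes was 133144 in the knockout control and 5166 in the wild type control. At 6 days it was 13358 in wild type and 3578 in knockout. That of 11 exocrine pancreas genes was 83364 in the wild type control and 3625 to 4523 on the other arrays of the comparison. On the knockout 8-hour array, which entered the estimate of spread, these sums were 18865 and 25282. For the Gapdh control probes the 5'/3' ratio stood at 0.793 on the knockout control array and at 1.04 to 1.15 on the other arrays of the comparison. In bulk tissue a change in the number of cells of a type and a change in RNA per cell cannot be told apart.

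Genes of brown fat were among the largest rises found in both genotypes. Ucp1 read 381 in the wild type control and 36495 after 6 days, and 300 and 16088 in the knockout. It was 95.8-fold higher in wild type and 53.6-fold higher in knockout, and it rose by 6.16 ± 0.32 on the log2 scale as the mean of both genotypes (adjusted p = 0.00855, here and below from limma with Benjamini-Hochberg adjustment over all genes, ± standard error of the fit). Cox7a1 and Cox8b encode the subunits of cytochrome c oxidase that heart, muscle and brown fat use in place of the common isoforms. For Cox7a1 the values were 167 and 8217 in wild type, 194 and 2476 in knockout (at least 4.63 ± 0.54, adjusted p = 0.0364). For Cox8b the values were 2377 and 20683 in wild type and 2182 and 9680 in knockout (2.64 ± 0.36, adjusted p = 0.0457). Cidea, a lipid droplet protein of brown fat, went from 1927 to 20867 and from 1342 to 8551 (3.05 ± 0.27, adjusted p = 0.0236). In these 4 genes, and in 17.4% of all genes, both 6-day arrays lay above both controls; in the 4 genes the knockout 6-day array lay below the wild type 6-day array.

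The sequences before the transcription starts of Ucp1 and of both cytochrome oxidase genes are shown because these genes rose furthest among those with a respiratory role. They are the 250 bases before the start in the RefSeq promoter table (GRCm38.p6), 5′ to 3′ on the gene's strand. Capitals mark TGACG, the core of the cyclic AMP response element, and AGGTCA, the hexamer bound by nuclear receptors, each searched on both strands.
Ucp1, chr8:83290098-83290347, plus strand: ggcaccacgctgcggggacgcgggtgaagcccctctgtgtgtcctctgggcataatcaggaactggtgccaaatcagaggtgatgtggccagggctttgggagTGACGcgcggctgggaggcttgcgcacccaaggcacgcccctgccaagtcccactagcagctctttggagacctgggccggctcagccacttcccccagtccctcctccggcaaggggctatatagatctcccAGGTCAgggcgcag
Cox7a1, chr7:30183921-30184170, plus strand: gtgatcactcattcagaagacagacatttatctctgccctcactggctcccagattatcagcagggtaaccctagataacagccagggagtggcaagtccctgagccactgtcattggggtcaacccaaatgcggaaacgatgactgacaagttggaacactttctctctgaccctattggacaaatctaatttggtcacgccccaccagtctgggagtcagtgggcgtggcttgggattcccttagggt
Cox8b, chr7:140900447-140900696, minus strand: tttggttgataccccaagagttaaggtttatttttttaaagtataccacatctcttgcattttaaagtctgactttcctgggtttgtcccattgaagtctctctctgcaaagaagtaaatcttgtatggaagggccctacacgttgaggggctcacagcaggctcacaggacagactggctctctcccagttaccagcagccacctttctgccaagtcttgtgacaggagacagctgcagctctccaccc
The Ucp1 window held 1 match to each motif, and the Cox7a1 and Cox8b windows held 0. Over all 32851 promoters of the table, 14.0% held AGGTCA and 17.8% held TGACG. Of the genes that rose, 11 of 14 had a promoter in the table, and 2 of these 11 held AGGTCA (Ucp1 and Chchd10) and 1 held TGACG (Ucp1). Of 28 promoters belonging to 26 of the genes that fell, 3 held AGGTCA (Mst1r, Ptpn21 and Upk3b) and 2 held TGACG (Nbl1 and Npr3). A match describes these letters and not a bound site.

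Altogether 51 genes passed the test (0.832%): 14 rose, 0.228% of those tested, and 37 fell, 0.604%. All 51 were at least 2-fold apart in the same direction in both genotypes. The test itself favours such genes, because its spread comes from how far the genotypes differ in their changes over time. All 51 kept their direction under each of the 14 alternative settings, which could hardly be otherwise for genes picked on these same values. All 37 falls also lay below both controls on the 8-hour and 3-day arrays, and 10 of the 14 rises lay above both controls on all 6 treated arrays. Over all 6128 genes, 766 lay below and 514 above both controls on all 6 treated arrays. These counts are not independent of the test, which used the same controls and took its spread from all arrays. Of these 51 genes, 12 had a further tested probe set, and 0 of the 13 further probe sets had a change of opposite sign. The size was not always shared: the further probe set had a mean change of 0.26 for Mki67, against 2.78 for the one used, of -0.12 for Zbtb16, against -1.71, and of -0.71 for Folh1, against -3.24. The calls rest on 3 residual degrees of freedom: 0 rises and 0 falls passed without either control array, either 8-hour array or the knockout 6-day array, 1 and 0 without either 3-day array, and 203 and 83 without the wild type 6-day array. At an unadjusted p under 0.05, 495 genes (8.08%) were higher and 622 (10.2%) lower.

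**Figure D1:**
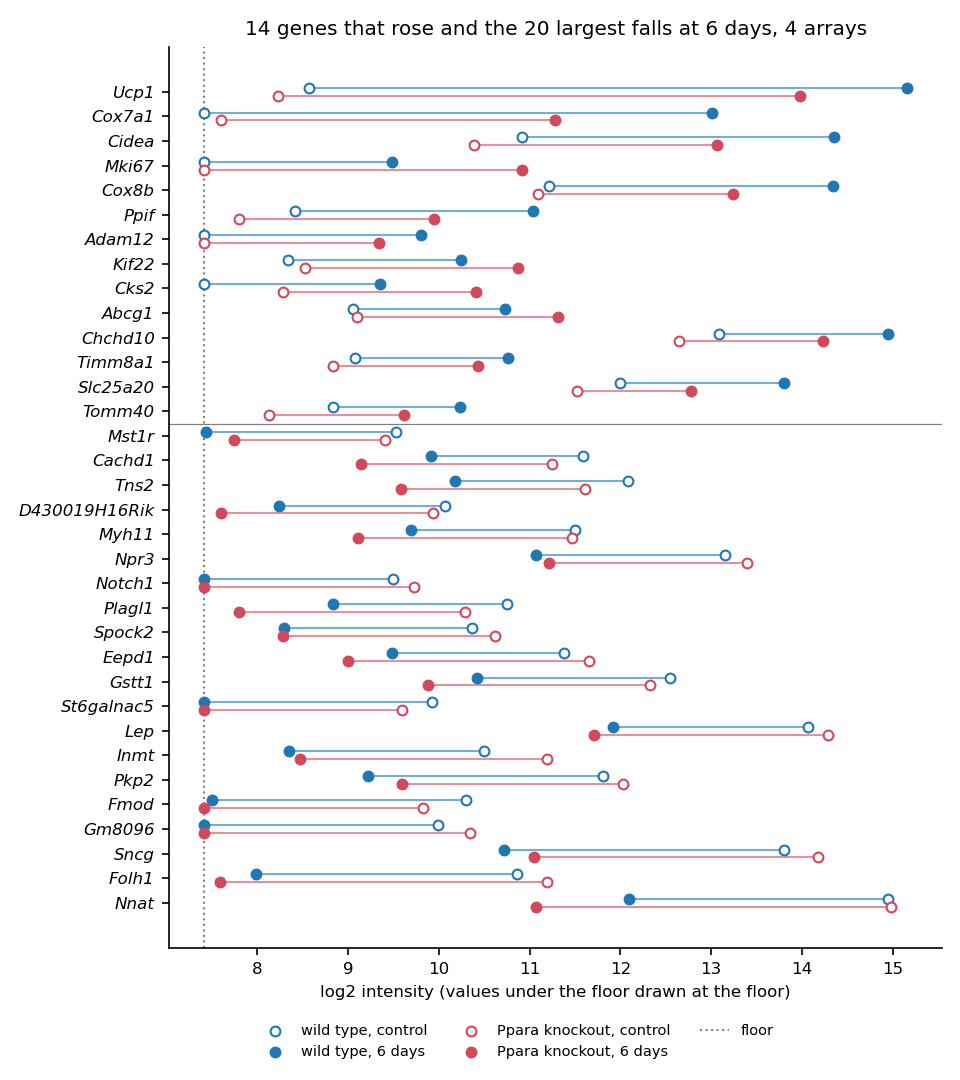
Log2 intensity of the 14 genes that rose and of the 20 largest falls on the 4 arrays, with open points for the control and filled points for the 6-day array of each genotype, joined by a line, and values under the floor drawn at the floor. In every gene shown both 6-day points lie on the same side of both control points. Among the rises the wild type 6-day point lies furthest to the right for Ucp1, Cox7a1, Cidea, Cox8b, Ppif, Adam12, Chchd10, Timm8a1, Slc25a20 and Tomm40. The knockout 6-day point does so for Mki67, Kif22, Cks2 and Abcg1.

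The other rises included 5 genes of mitochondrial proteins, 3 cell division genes, the lipid exporter gene Abcg1 and Adam12. Slc25a20, the carrier that takes acylcarnitines into mitochondria for oxidation, read 4096 and 14268 in wild type and 2934 and 7001 in knockout (1.53 ± 0.20, adjusted p = 0.0410). Chchd10, a protein between the mitochondrial membranes, went from 8723 to 31626 and from 6388 to 19202. Ppif, the cyclophilin of the mitochondrial permeability pore, went from 342 to 2102 and from 223 to 990. The import genes Timm8a1 and Tomm40 were 3.19-fold and 2.63-fold higher in wild type and 3.02-fold and 2.80-fold higher in knockout. The cholesterol exporter gene Abcg1 read 532 and 1695 in wild type, 549 and 2546 in knockout (1.94 ± 0.24, adjusted p = 0.0366). Adam12, a membrane protease, was under the floor in both controls and read 896 and 650 after 6 days.

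Among 20 listed brown fat genes 9 were tested and 4 rose. A further count, at an unadjusted p under 0.05, was 6 higher and 0 lower, against 8.08% and 10.2% of all genes. The medians of the 9 genes were 2.76 in wild type and 1.68 in knockout, against 0 and -0.01 over all genes. Dio2, the deiodinase that activates thyroid hormone, read 176 and 1196 in wild type and 93 and 417 in knockout (at least 2.03 ± 0.36, adjusted p = 0.0772). The potassium channel gene Kcnk3 reached 700 in wild type and stayed under the floor in knockout. Elovl3, which lengthens fatty acids in brown fat, reached 301 in wild type and 163, under the floor, in knockout. Ppargc1a did not pass the filter, and Adrb3 had no probe set of a single gene here.

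Oxidative phosphorylation differed in extent between the genotypes on these arrays. All 27 tested genes of complex I had a positive change in wild type (46.6% of all genes did), with a median of 0.71, while 17 were higher and 10 lower in knockout (46.4% and 50.4% of all genes), with a median of 0.08. The medians in wild type and knockout were 0.77 and 0.18 for the 4 genes of complex II, 0.98 and 0.30 for 8 genes of complex III, 0.85 and 0.08 for 11 genes of complex IV, and 0.71 and 0.21 for 13 genes of complex V, the ATP synthase. Of the 63 genes together, 58 had the larger change in wild type, against 51.5% of all genes. Here and below a larger change is taken with its sign, so a fall counts as smaller than no change. Only Cox7a1 and Cox8b passed the test for both genotypes, whose spread widens where the genotypes differ. Ndufv2 of complex I read 8750 and 18201 in wild type and 10341 and 12361 in knockout. The core subunit gene Uqcrc1 of complex III read 9020 and 19871 against 11205 and 10784, and Uqcrc2 read 5551 and 15028 against 3984 and 8458. In the controls the genotypes stood close together on these genes, with a median gap, knockout minus wild type, of -0.03, and at 6 days the gap was -0.67. At 3 days it was -0.34.

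The isoforms of cytochrome oxidase differed in their values. The common subunit gene Cox7a2 read 15312 and 20955 in wild type and 15638 and 14853 in knockout, a change of 0.45 and -0.07, whereas the change of its brown fat and muscle counterpart Cox7a1 was at least 5.59 in wild type and was 3.67 in knockout. Cox6a1, the common form, had a change of 0.61 in wild type and 0.08 in knockout, and Cox6a2, the muscle form, was under the floor on 3 arrays of the comparison and read 237 in knockout at 6 days. Cox4i1 read 1294 and 3305 in wild type and 1359 and 1257 in knockout. The adenine nucleotide carrier Slc25a5 had a change of 0.79 and 0.55, and its isoform Slc25a4 had 0.05 and -0.15. Cox8a did not pass the filter and Ucp2 had no probe set of a single gene here, so those pairs were not compared.

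For fuel oxidation upstream of the respiratory chain the medians were also higher in wild type. Of 17 tested genes of mitochondrial fatty acid oxidation, Slc25a20 rose and 0 fell. At an unadjusted p under 0.05, 13 were higher, against 8.08% of all genes, and 16 had the larger change in wild type, against 51.5% of all genes. The medians were 1.22 for wild type and 0.63 for knockout. Etfdh, which passes electrons from fatty acid oxidation to ubiquinone, read 2259 and 10266 in wild type and 1903 and 4072 in knockout (1.64 ± 0.29, adjusted p = 0.0772). Acadl, an acyl-CoA dehydrogenase for long chains, read 2430 and 8133 against 1370 and 3383 (1.52 ± 0.23, adjusted p = 0.0561). The isomerase gene Eci1 read 4855 and 15497 in wild type and 4119 and 5497 in knockout. Cpt1a, which makes acylcarnitines at the outer membrane, ran the other way, at 3404 and 1954 in wild type against 3906 and 7158 in knockout. Of 15 genes of the TCA cycle and pyruvate dehydrogenase 0 passed, and 9 had an unadjusted p under 0.05 with a higher level, against 8.08% of all genes. All 15 had the larger change in wild type, with medians of 0.99 and 0.30. Idh3a, a subunit of isocitrate dehydrogenase, read 1622 and 4315 in wild type and 1680 and 1873 in knockout.

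None of these genotype differences passed its own test. The difference between the 6-day changes of knockout and wild type had 1 residual degree of freedom, 0 of 6128 genes passed over all genes in limma, the smallest adjusted p was 0.330, and 896 genes (14.6%) had an unadjusted p under 0.05. At that unadjusted level the wild type change was the larger in 3 of the 63 respiratory genes, 2 of the 17 fatty acid oxidation genes and 2 of the 15 TCA cycle genes. Over all 6128 genes it was the larger at that level in 396, among them genes with a deep fall in knockout, such as Lcn5 and Clu. Beside these values, 16 fat cell identity genes had medians of -0.13 (wild type) and -0.62 (knockout), and its part in the difference was not tested. Against the mean of both controls in place of each genotype's own, the respiratory medians were 0.76 in wild type and 0.12 in knockout.

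**Figure D2:**
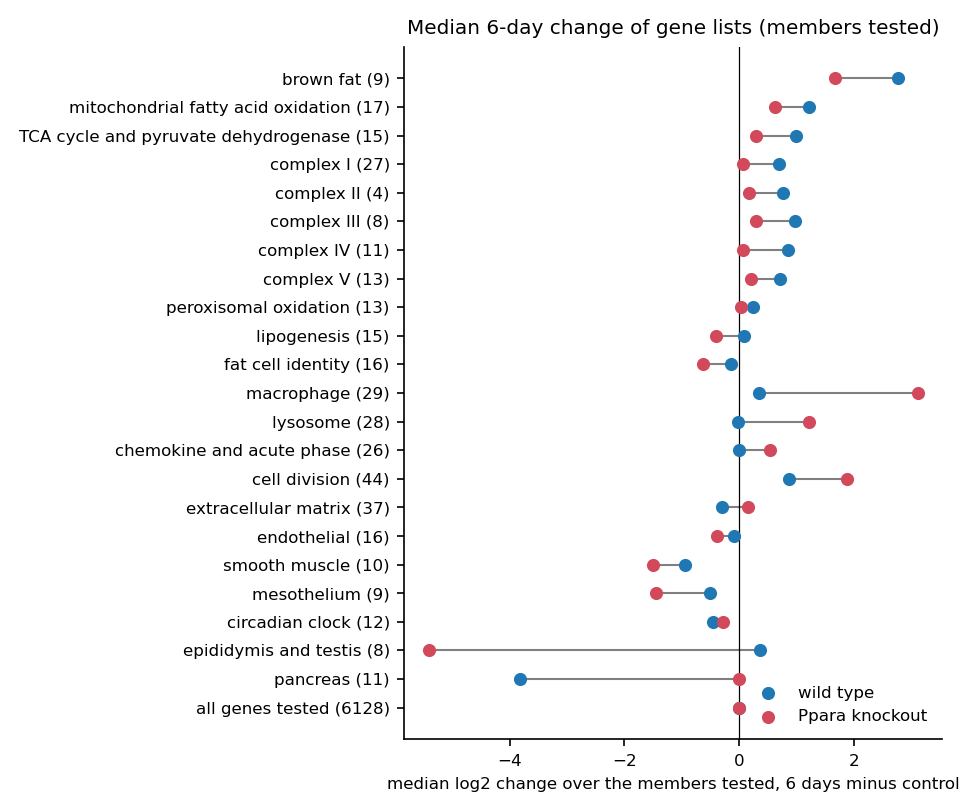
Median log2 change from control to 6 days over the tested members of each gene list, in wild type (blue) and knockout (red), with the number of members tested in brackets. Wild type lies to the right for brown fat, fatty acid oxidation, the TCA cycle and complexes I to V, and knockout lies to the right for the macrophage list (0.35 and 3.11), the lysosome list (-0.02 and 1.23) and the cell division list (0.87 and 1.88). The summed intensity of the pancreas list was highest in the wild type control. That of the epididymis and testis list was highest in the knockout control, and at 6 days it was 13358 in wild type and 3578 in knockout.

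Known PPARα target genes went in several directions. Of 20 tested, Slc25a20 rose and 0 fell, 5 were 2-fold higher in both genotypes, 1 in wild type only and 1 in knockout only (1.31%, 0.734% and 4.24% of all genes), with medians of 0.36 (wild type) and 0.09 (knockout). Pdk4, the kinase that holds back pyruvate oxidation, read 2316 and 10272 in wild type and 815 and 4158 in knockout, 2.15 and 2.35 on the log2 scale (adjusted p = 0.0772). Acaa1b, a peroxisomal thiolase, read 6809 and 15824 in wild type and 5092 and 16339 in knockout. Ehhadh, the bifunctional enzyme of peroxisomal oxidation, read 408 and 1445 in wild type and 264 and 241 in knockout (unadjusted p of the difference 0.0518). Plin2, which coats lipid droplets, read 13604 and 15158 in wild type and 13409 and 36946 in knockout. Among 13 peroxisomal oxidation genes 0 passed, with medians of 0.25 and 0.04, and Acot8 read 276 and 643 in wild type and 296 and 336 in knockout.

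Most listed genes of cell division were higher after 6 days in both genotypes. Mki67, the proliferation antigen, was under the floor in both controls and read 717 in wild type and 1936 in knockout (at least 2.78 ± 0.38, adjusted p = 0.0419). The spindle motor gene Kif22 read 323 and 1216 in wild type and 370 and 1868 in knockout (2.12 ± 0.25, adjusted p = 0.0364). Cks2, a subunit of cyclin-dependent kinases, read 125 and 655 in wild type and 312 and 1362 in knockout (at least 2.03 ± 0.26, adjusted p = 0.0384). Of 44 tested members of the list these 3 rose and 0 fell. At an unadjusted p under 0.05, 31 were higher, against 8.08% of all genes. A positive change in both genotypes was found in 35, against 24.4% of all genes. The medians were 0.87 (wild type) and 1.88 (knockout), and 43 members had the larger change in knockout, against 47.5% of all genes. Pcna, the clamp of DNA replication, read 2095 and 2242 in wild type and 1471 and 8690 in knockout. The genotypes were closer at 3 days, where the median gap of the list, knockout minus wild type, was 0.44, than at 6 days, where it was 1.28.

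The 37 falls include the hormone gene Lep, the smooth muscle myosin gene Myh11 and the matrix gene Fmod. Nnat, an imprinted membrane protein gene, read 31547 and 4358 in wild type and 32360 and 2149 in knockout (-3.38 ± 0.45, adjusted p = 0.0419). Folh1, a membrane carboxypeptidase, read 1863 and 253 against 2338 and 192 (-3.24 ± 0.29). Sncg, the fat cell and neuronal protein synuclein gamma, read 14328 and 1687 against 18558 and 2113 (-3.11 ± 0.26, adjusted p = 0.0236). Lep, which encodes leptin, read 17097 and 3883 in wild type and 20024 and 3349 in knockout, 4.40-fold and 5.98-fold lower. Npr3, the clearance receptor for natriuretic peptides, read 9122 and 2149 against 10751 and 2375. For Sncg and Npr3 the changes of wild type and knockout lay within 0.10 of each other on the log2 scale.

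Further falls were spread over several functions. Pkp2, a desmosome protein, read 3579 and 596 in wild type and 4164 and 771 in knockout. The collagen-binding proteoglycan gene Fmod read 1263 and 181 against 909 and 108 (at least -2.61 ± 0.23). Notch1 was under the floor on both 6-day arrays after 723 and 849 in the controls. Plin4, a lipid droplet coat protein, read 31404 and 13847 against 27893 and 8391 (-1.46 ± 0.21, adjusted p = 0.0480). Myh11, described below with smooth muscle, belongs to the 20 largest falls, and so do Gm8096 (at least -2.75) and St6galnac5 (at least -2.35), which were under the floor on both 6-day arrays. Inmt, Gstt1, Eepd1, Spock2, Plagl1, D430019H16Rik, Tns2, Cachd1 and Mst1r complete the 20, with mean changes from -2.43 to -1.88. The other 17 falls, Plin4 among them, ran to -1.27 and included the growth restraint gene Cdkn1c (2029 and 635 against 1857 and 579) and the zinc finger gene Zbtb16 (3945 and 1238 against 2995 and 889).

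Not all fat cell genes were lower. Of 16 tested fat cell identity genes Lep and Npr3 fell, 0 rose, and 7 lay below both controls on both 6-day arrays, against 21.8% of all genes. Adipoq, which encodes adiponectin, read 57089 and 53119 in wild type and 51664 and 41987 in knockout, a mean change of -0.20 ± 0.23 that did not pass. Pparg, the master regulator of fat cells, read 5576 and 5184 against 4851 and 3258. Among 15 genes of lipogenesis 0 passed, and Fasn, fatty acid synthase, read 37828 and 38763 in wild type and 28145 and 15054 in knockout. Elovl6, a fatty acid elongase, read 1628 and 3815 in wild type and 1219 and 697 in knockout. In lipid handling Plin4 was the only one of 15 genes to pass, and the fatty acid binding protein gene Fabp5 read 4586 and 10238 against 3433 and 9745 (1.33 ± 0.19, adjusted p = 0.0524).

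Most listed genes of smooth muscle and mesothelium had lower values in both genotypes. Of 10 smooth muscle genes Myh11, the smooth muscle myosin, fell (2889 and 828 in wild type, 2839 and 551 in knockout, -2.08 ± 0.21, adjusted p = 0.0324) and 0 rose. Of the 10, 8 lay below both controls on both 6-day arrays, against 21.8% of all genes. Acta2, smooth muscle actin, read 5058 and 1060 against 5015 and 1343 (-2.08 ± 0.34, adjusted p = 0.0633). The medians of the list were -0.94 (wild type) and -1.51 (knockout). Of 9 mesothelium genes, which mark the membrane covering the fat pad, Upk3b fell (3329 and 1232 against 3123 and 1142, adjusted p = 0.0364), and the list's medians were -0.50 and -1.45. Keratin genes of that list stood high in the knockout control, as for Krt18 with 2716 there and 245 in the wild type control, beside the epididymis signal of that array, and the part of that signal was not tested.

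Genes of macrophages stood apart between the genotypes at 6 days. Adgre1, a surface receptor that marks mouse macrophages, read 388 and 1019 in wild type and 327 and 10264 in knockout, 2.63-fold and 31.4-fold higher. Cd68, a lysosomal protein of macrophages, read 1167 and 2515 against 1737 and 18755. Itgam, the integrin CD11b, read 213 and 343 against 34 and 2579. The scavenger receptor gene Msr1 was under the floor in both controls and in wild type at 6 days and read 1960 in knockout at 6 days, and Mrc1, the mannose receptor, read 1268 and 772 in wild type and 724 and 6391 in knockout. Of 29 tested macrophage genes 28 were at least 2-fold higher in knockout than in wild type at 6 days (9.33% of all genes were), 7 were so at 3 days (2.55%), and 1 was 2-fold apart in the controls, either way (4.83%). The exception at 6 days was the fractalkine receptor gene Cx3cr1, at 863 in wild type and 505 in knockout.

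For the macrophage list the medians were 0.35 (wild type) and 3.11 (knockout), and 28 of the 29 genes were 2-fold higher in knockout against 5 in wild type, where the shares over all genes were 9.46% and 3.56%. By the test for both genotypes 0 of 29 rose or fell, with 17 higher at an unadjusted p under 0.05, against 8.08% of all genes. A difference between the genotypes widens the spread of that test, so not passing does not mean that a gene was unchanged. The difference between genotypes had an unadjusted p under 0.05 with the larger change in knockout in 25 of 29, and in 500 of all 6128 genes. Among the 500 are genes that were lower at 6 days in wild type, such as Cela1. Of the 25, 0 passed over all genes. Summed over the list, intensity was 39638 in the wild type control, 149607 at 3 days and 52276 at 6 days, and 39805, 219132 and 255421 in knockout. At 6 days the wild type sum was 1.32 times its control and the knockout sum 6.42 times. Each genotype had 1 array at 6 days, so a difference between genotypes and a difference between these arrays cannot be told apart. Of 7 neutrophil genes 0 passed. Their summed intensity was 1574 in the wild type control and 1646 at 6 days, and 1558 and 2452 in knockout, against 24825 and 33085 at 8 hours.

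**Figure D3:**
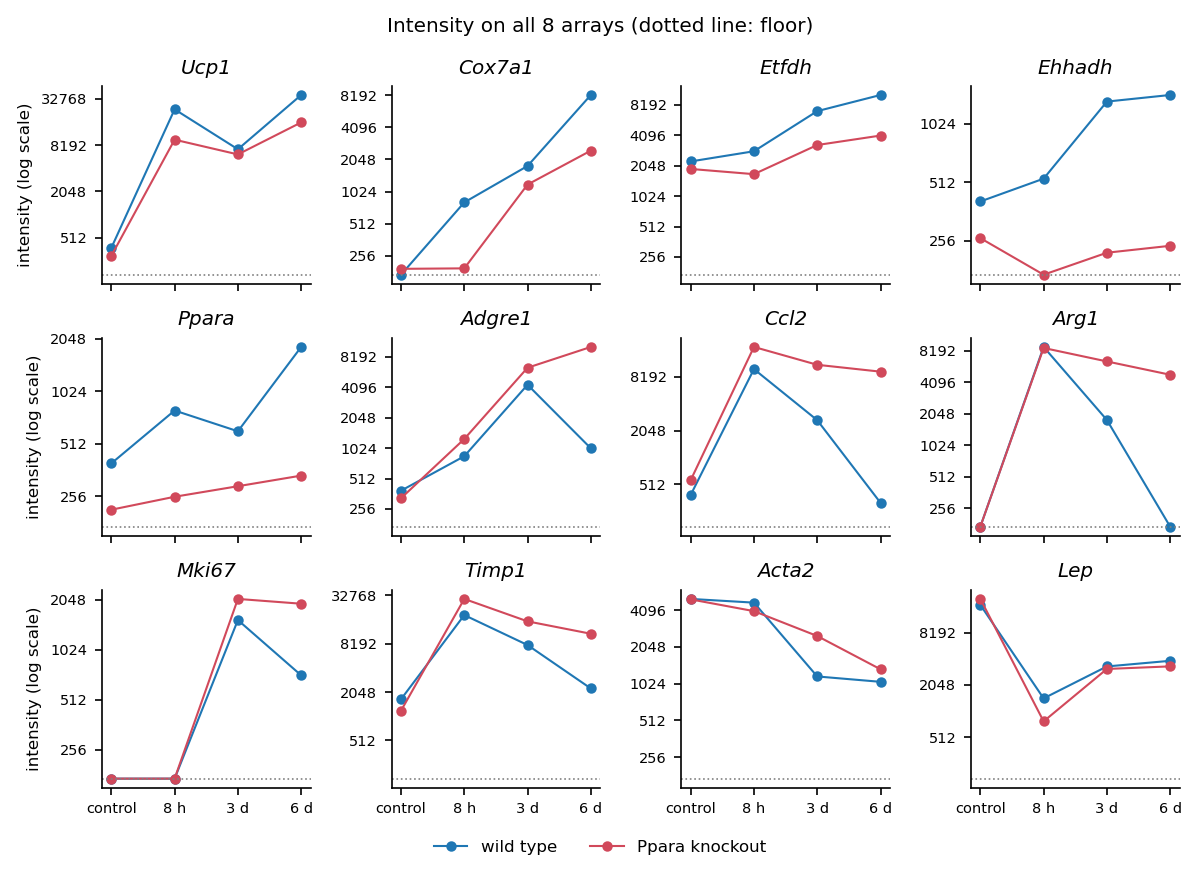
Intensity on all 8 arrays, on a log axis, of 12 genes named in the text, with wild type in blue and Ppara knockout in red, 1 array per point and the floor as a dotted line. Adgre1, Ccl2, Arg1 and Timp1 lie lower in wild type at 6 days than at 3 days and remain high in knockout, whereas Ucp1, Cox7a1 and Etfdh stand highest at 6 days in both genotypes.

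Some chemokines and products of activated macrophages were also higher in the knockout 6-day tissue, but fewer of their list. Ccl2, which attracts monocytes, read 388 and 317 in wild type and 568 and 9387 in knockout, and its relative Ccl7 was under the floor in both controls and in wild type at 6 days and read 2619 in knockout at 6 days. Arg1, arginase of alternatively activated macrophages, read 51 in wild type and 4818 in knockout at 6 days. Adam8, a protease of leukocytes, was under the floor in both controls and in wild type at 6 days, with 1714 and 2615 in wild type at 8 hours and 3 days, and read 8873 in knockout at 6 days, at least 51.9-fold higher. The receptor genes Ccr1 and Ccr2 read 115 and 1170 in wild type and 1883 and 6786 in knockout after 6 days. In the list of chemokines and acute phase proteins 0 of 26 passed, and 10 were 2-fold higher in knockout and 2 in wild type, against 9.46% and 3.56% of all genes. Il6, Ccl4 and Il1b were under the floor on all 4 arrays. Ccl8 was the member nearest to passing in both genotypes (270 and 1095 in wild type, 315 and 3321 in knockout, 2.71 ± 0.43, adjusted p = 0.0611).

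Genes of the lysosome were also higher in the knockout 6-day tissue, and those of matrix and interferon response less uniformly so. Of 28 lysosome genes 20 were 2-fold higher in knockout than in wild type at 6 days (9.33% of all genes were), and 0 were 2-fold apart in the controls (4.83%). The medians of the list were -0.02 (wild type) and 1.23 (knockout). Lipa, lysosomal acid lipase, read 494 and 1377 in wild type and 525 and 5604 in knockout (2.45 ± 0.46, adjusted p = 0.0777). The cathepsin gene Ctss read 2905 and 6819 against 3622 and 25851. Among 37 matrix genes Fmod fell and 0 rose, with medians of -0.30 and 0.16. At 6 days 25 were higher and 10 lower in knockout than in wild type, where 2693 of all 6128 genes were higher and 3207 lower. Of the 37 matrix genes, 8 were 2-fold higher, against 9.33% of all genes. Timp1, an inhibitor of matrix proteases, read 1666 and 2270 in wild type and 1199 and 10902 in knockout, and Col1a1, a chain of type I collagen, read 7830 and 8291 against 5623 and 18552. For 17 interferon response genes 0 passed, the medians were -0.06 and 1.09, and 8 were 2-fold higher in knockout than in wild type at 6 days, against 9.33% of all genes.

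Sorted by size alone, 194 genes were at least 2-fold apart in the same direction in both genotypes, 80 higher (1.31%) and 114 lower (1.86%). They made up 41.6% of the 466 genes that were 2-fold apart in wild type (3.56% of all genes higher, 4.05% lower) and 18.0% of the 1080 in knockout (9.46% higher, 8.16% lower). Across all genes the changes of wild type and knockout, which share no array, had a Pearson correlation of 0.30 and a Spearman correlation of 0.25, as a description, since genes are not independent and all arrays had been brought to a common distribution. Among the 80 shared higher genes the medians were 1.48 (wild type) and 2.15 (knockout). The group holds 16 cell division genes, 6 brown fat genes and 5 macrophage genes, so the word shared covers genes that were larger in wild type and genes that were larger in knockout. Of the 114 shared lower genes the medians were -1.47 and -1.60, and 99 had no 2-fold gap between the genotypes in either the controls or the 6-day arrays.

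Knockout only changes were taken as at least 2-fold in knockout, under 0.5 on the log2 scale in wild type, at least 2-fold apart between the genotypes' changes, and with at least 1 wild type array of the pair above the floor. They numbered 260 higher (4.24%) and 158 lower (2.58%). A further 70 higher (1.14%) and 20 lower (0.326%) had both wild type arrays under the floor, where a wild type change could not be measured, and were counted apart; Adam8, Arg1, Ccl7 and Msr1 are among the higher. In 208 of the 260 higher genes the 2-fold gap between genotypes lay at the 6-day arrays alone, and in 8 in the controls alone. Within the class as defined the 10 largest by difference of the changes were Ccl2, Slfn2, Ccr1, Ifi202b, Cd53, Ms4a6c, Myo1f, Fcgr1, S100a4 and Btk, most of them expressed by leukocytes. Slfn2 read 320 and 399 in wild type and 78 and 4050 in knockout, and Cd53, a leukocyte membrane protein, read 1216 and 1367 against 856 and 10774. Plin2, Hmox1, the haem-degrading enzyme (2343 and 2951 against 2309 and 10914), and Pcna were also in this class. With the mean of both controls as baseline, an alternative added after the data were seen, the class held 314 genes in place of 418 in all.

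Among the knockout only lower genes the gap between genotypes was often in the controls. In 63 of the 158 the gap lay in the controls alone and in 36 at the 6-day arrays alone. Lcn5, a lipocalin of the epididymis, read 52634 in the knockout control and 19 at 6 days, and was under the floor in the wild type control and 223 in wild type at 6 days. Clu, clusterin, read 35566 and 711 in knockout and 2021 and 2573 in wild type. The other 8 of the 10 largest in the class were Cyb561, Kcnk1, Cuzd1, Cldn3, Krt18, Hip1r, Prom1 and Cdh16, for which the knockout control read 2035 to 10550 and the other arrays of the comparison 643 or less. C4bp, a complement regulator, read 9625 and -28 in knockout and was left out of the class because both wild type arrays were under the floor. The epididymis signal of the knockout control stands beside all of these, and its part in each was not tested.

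Wild type only changes, defined in the same way with the genotypes exchanged, were fewer, 45 higher (0.734%) and 37 lower (0.604%). A further 2 higher (0.0326%) and 9 lower (0.147%) had both knockout arrays under the floor. Of the 45 higher genes, 33 had the gap at the 6-day arrays alone. The 10 largest were Ldhb, Myh4, Prss8, Ehhadh, Cox6b2, Pon1, Car2, Ak1, Pald1 and S100b. Ldhb, a lactate dehydrogenase subunit, read 969 and 3549 in wild type and 1467 and 1206 in knockout (unadjusted p of the difference 0.00425, not passing over all genes). Gpd2, the mitochondrial glycerol phosphate dehydrogenase, read 1027 and 3378 against 807 and 905, and Dhrs4, a retinal reductase, read 1870 and 5440 against 1382 and 1303. Uqcrc1, Cox4i1, Eci1, Idh3a and Acot8, described above, were also in the class.

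On the lower side of the wild type only class the 3 largest were the pancreas genes Ctrb1 (24101 and 498 in wild type, 363 and 285 in knockout) and Cela1, and 2210010C04Rik, which stood with them in the wild type control. The pancreas genes Prss2 (13345 and 52 in wild type) and Clps (3587 and 131) were left out of the class because both knockout arrays were under the floor. The next were Peg3, Rcan3, Thy1, Mt2, S100a6, Pea15a and Ephx1. Mt2, a metal-binding metallothionein, read 12810 and 3280 in wild type and 15506 and 12170 in knockout, and its partner Mt1 read 11076 and 5384 against 13559 and 13733. Those 2 genes did not have a 2-fold gap in the controls. Vwf, the clotting factor of endothelial cells, read 1726 and 603 in wild type and 1116 and 938 in knockout.

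In 14 genes (0.228%) the changes of the genotypes were each at least 2-fold and opposite. Gpx5 and Adam7, genes of the epididymis, were higher at 6 days in wild type and lower in knockout, and so were Slc38a5, Lcn2 and Ppy. The other 9 were lower in wild type and higher in knockout, among them Hal, which breaks down histidine (1287 and 558 in wild type, 1349 and 6807 in knockout), and Ctsc, a lysosomal protease that activates enzymes of leukocyte granules (3076 and 1359 against 2338 and 6450).

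**Figure D4:**
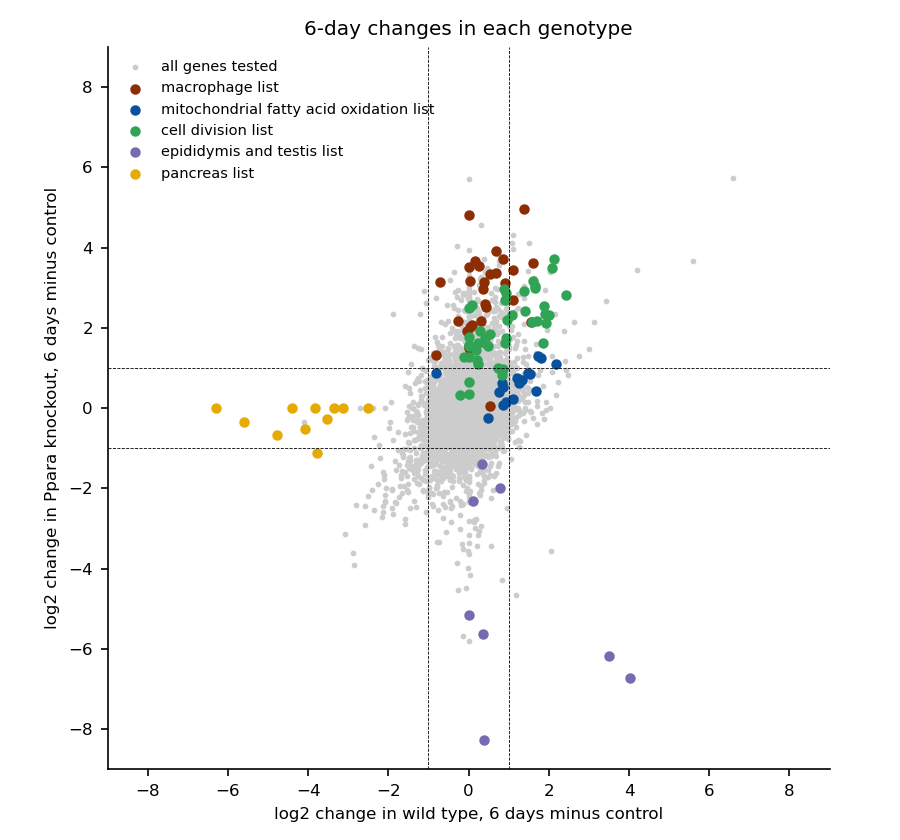
Log2 change from control to 6 days in wild type (x axis) against knockout (y axis) for all 6128 genes tested (grey), with 5 gene lists in colour and dashed lines at 2-fold. Macrophage genes lie high on the y axis and mostly between the 2-fold lines of the x axis, fatty acid oxidation genes lie to the right, cell division genes lie up and to the right, and epididymis and pancreas genes lie apart along a single axis each, with Gpx5 and Adam7 at the lower right.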

How the data were processed

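RNA of 8 mouse epididymal fat samples was measured on Affymetrix U74Av2 arrays, 1 per genotype and time. The values deposited by the authors are linear intensities in whole numbers, 11.9% of them below 0. Their quantiles matched between the arrays (within 2.88% at 5 quantiles), so the arrays had been equalised before deposit; the sources used here do not name the method, the background correction or the probe summary. No per-array error was used, and the number of arrays limits the precision. The table held 12488 probe sets, 66 of them controls; 10833 had 1 gene symbol in the platform annotation, 396 several, and 1193 none. Names of 10817 were updated through gene identifiers (RefSeq, GRCm38.p6). Values under 171, the 40th percentile, were set to 171, and log2 was taken. Probe sets above the floor on at least 2 of 8 arrays were kept (7346), and the brightest stood for each of 6128 genes. All value columns were used (0 left out).

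The 6-day change was fitted in limma 3.58.1 (R 4.3.3) as genotype plus time over all 8 arrays (3 residual degrees of freedom, threshold 0.05 after Benjamini-Hochberg adjustment). The difference between genotypes was tested from a limma fit with a genotype gap at control, at 6 days and in common at 8 hours and 3 days. Within a genotype there is 1 array per group and no test, so 2-fold classes were counted. A p-value here reflects only how these arrays scatter, and that scatter may be technical. In the genotype plus time fit the scatter is how far the changes over time differ between the genotypes, from any source. A gene whose genotypes differ therefore passes that test less readily. Both fits were also run on simulated data with known changes added. That simulation had no floor, no change at 8 hours or 3 days and no organ signal confined to a control. It therefore does not cover these features of the data. The 35 gene lists, the comparison and its members were chosen with earlier results of these data known. Named genes were Ppara, Adrb3 and Ucp1, all rises, the 20 largest falls, from each list at most 5 members, taken by the size of the mean change, the 10 largest of each single-genotype class in each direction, 6 each way for the difference, and isoform pairs; other genes were named after their values were seen. Alternatives were the floor, the filter, quantile normalization, the mean of probe sets, the variance prior, the arrays in the fit, the class limit and each array left out.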

Additional observations from a re-analysis of the deposited data

Results flagged for a closer look

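In 14 genes the 6-day change was at least 2-fold and ran in opposite directions in the genotypes. The difference of the log2 changes, knockout minus wild type, was tested with limma and passed for 0 of them over all genes, with adjusted p from 0.330 to 0.413. It was -10.77 for Gpx5, -9.68 for Adam7, -5.84 for Slc38a5, -5.64 for Lcn2 and -2.33 for Ppy, which were higher in wild type. In the first 4 of these the knockout control was the highest of the 4 arrays (18291, 12412, 15753 and 16051). The difference was 4.22 for Zfp787, 4.03 for Apbb1ip, 3.68 for Ifi207, 3.54 for Hal, 2.91 for Bach1, 2.76 for Zfp281, 2.64 for Ctsc, 2.51 for Pcdh7 and 2.16 for Sfrp2, which were higher in knockout. Values with an array at the floor are lower bounds in size.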

How the results depend on the processing

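The 6-day calls, 14 rises and 37 falls, numbered 4 and 7 with the floor at the 25th percentile, 0 and 0 without the filter on dim probe sets, 52 and 76 with a robust variance prior that follows intensity, and 0 and 0 with only the control and 6-day arrays, where 485 genes had an unadjusted p under 0.05. Leaving out 1 array gave 0 to 203 rises and 0 to 83 falls. Without the wild type 6-day array, when the 6-day value is that of the knockout alone, 9 of the 14 rises and 35 of the 37 falls were among them. The mean of probe sets gave 20 and 44, with 14 and 36 of the same genes, and quantile normalization gave 14 and 37, all the same genes. With the floor at the 25th percentile the shared 2-fold genes numbered 295 in place of 194 and the wild type only genes 158 in place of 82. In the difference between genotypes 0 genes passed under each setting run, with 621 to 1256 at an unadjusted p under 0.05. No paired analysis was possible because each group holds 1 array, so replicate numbers pair nothing; pairing by genotype is already a term of the fit that gave the 51 calls. Changes under the floor of 171 cannot be measured, and the floor is the 40th percentile.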

Other observations

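Most circadian clock genes had lower values after 6 days. Of 12 tested 0 passed, and 4 had an unadjusted p under 0.05 with a lower level, against 10.2% of all genes. A negative change in both genotypes was found in 9, against 28.5% of all genes. Nr1d1, a repressor of the clock, read 3778 and 1707 in wild type and 3798 and 925 in knockout (-1.59 ± 0.28, limma adjusted p = 0.0772). Dbp, Tef and Per1 had mean changes of -1.21, -1.18 and -1.17. The labels do not give the hour at which tissue was taken.

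In glycolysis 0 of 16 genes passed, and Pgk1 and Pgam1, which act in its lower part, had changes of 1.02 and 1.12 in wild type and 1.08 and 0.93 in knockout. Of 15 stress and chaperone genes Cryab, a small heat shock protein, fell (802 and 282 in wild type, 731 and 156 in knockout, at least -1.80 ± 0.23, limma adjusted p = 0.0387) and 0 rose. For 14 cholesterol synthesis genes 0 passed, with medians of -0.01 and 0.12. Among 5 lymphocyte genes 0 passed, and Il7r, the receptor of interleukin 7, read 94 and 228 in wild type and 89 and 1790 in knockout, while the B cell gene Ms4a1 read 695 and 992 against 806 and 544. For 16 endothelial genes the medians were -0.09 and -0.38, and for 7 genes of MHC class II -0.11 and 0.13, with 0 passing in either list. Of 17 genes of mitochondrial biogenesis and carriers 0 passed, with medians of 0.53 and 0.23. Neutrophil, interferon, skeletal muscle, adrenergic signalling and erythroid lists also had 0 genes passing.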
